A study of Mus musculus with 6 samples.

Results

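miR-221 and miR-222 are a pair of related microRNAs (miRNAs) that lie close together on the mouse X chromosome. They were chosen by name, as the hairpins Mir221 and Mir222, and make up 2 of the 708 mouse miRNA hairpins with reads in these samples, out of 1174 hairpins searched. Both arms of each hairpin were read, which gave 4 of the 973 arms with reads. The samples were wild-type C57BL/6 mouse bone marrow-derived monocytes (BMMs), cultured with PBS (control, 3 samples) or with 5 pg/ml lipopolysaccharide for 4 h (LPS, 3 samples), and their small RNAs were sequenced. Lipopolysaccharide coats Gram-negative bacteria and is sensed by the receptor TLR4, and the study asked what super-low doses of it do to monocytes. The dose and time given here are those of the miRNA sequencing, and other experiments of the study used other doses or times. The culture medium was DMEM by the labels and RPMI by the methods. Nothing in the labels says that the replicates came from separate mice or cultures, so the p-values measure the spread between these samples, which may be technical.

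A miRNA is cut from a folded hairpin and pairs, through its seed (bases 2 to 8 from its 5′ end), with sites in messenger RNAs, which are then translated less or degraded. The 3p and 5p arms are the strands cut from the right and the left side of the hairpin, and usually 1 of them is kept. miR-221 and miR-222 come from 1 shared primary transcript and carry the same seed. They are best known for repressing Cdkn1b (p27), a brake on the cell cycle, and Kit, the receptor for stem cell factor. In macrophages they have been tied to endotoxin tolerance, the muted response to repeated LPS, through Smarca4 (Brg1), a subunit of a chromatin remodelling complex.

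The hairpins are shown because the position of each arm and of the bases that follow it decides how the reads below are read. They are RefSeq sequences, 5′ to 3′ on the minus strand of GRCm38, with the mature miRNAs that RefSeq lists in capitals. Mir221 lies at chrX:19146294-19146388 and Mir222 at chrX:19146893-19146971, 504 nt apart.
Mir221: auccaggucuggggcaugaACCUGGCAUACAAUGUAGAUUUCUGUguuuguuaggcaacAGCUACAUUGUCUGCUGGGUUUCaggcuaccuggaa
Mir222: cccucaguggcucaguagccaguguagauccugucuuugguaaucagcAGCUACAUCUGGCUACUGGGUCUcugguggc
Neither hairpin overlapped another gene in the GENCODE M21 annotation. The nearest gene on the side of higher coordinates was the processed transcript Gm14636, on the same strand, 10009 nt from Mir222.

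The mature sequences show what the pair shares, with the seed in capitals.
miR-221-3p: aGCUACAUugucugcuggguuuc
miR-222-3p: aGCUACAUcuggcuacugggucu
miR-221-5p: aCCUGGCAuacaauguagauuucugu
The 3p arms had the same first 8 bases and were identical at 11 of 23 positions (47.8%), so the seed was common to both and the rest told them apart. All 856 distinct reads given to the pair matched no other hairpin, and 0 matched both Mir221 and Mir222. The only other mature mouse miRNA in the RefSeq table with the seed GCUACAU was miR-1928, for which 0 reads were found. miR-222-5p was named here from the reads of its arm.

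The samples held 2415199 to 3880822 reads in the control group and 2201520 to 17691405 in the LPS group, of which 61.6% to 71.0% were assigned to a miRNA hairpin. LPS replicate 2 stood apart. It had the most reads, and sequences found a single time made up 18.6% of its distinct sequences, where the other 5 samples had 67.1% to 74.6%. The miRNAs listed here as macrophage and blood markers were miR-223-3p, miR-142-3p, miR-142-5p, miR-21a-5p and miR-22-3p. They took 35.8% to 39.5% of the hairpin reads in the control samples and 35.2% to 39.4% in the LPS samples. Most of this share was miR-22-3p and miR-21a-5p, with control means of 197641 and 149163 per 1000000 hairpin reads. The control means of miR-142-5p, miR-223-3p and miR-142-3p were 25278, 5818 and 4116. How specific each is to such cells was not tested. Of 17 markers of other cell types, miR-124-3p, miR-145a-5p, miR-1a-3p and miR-144-3p were at 0 and the other 13 had reads, from 4 reads of miR-133a-3p to 998 of the epithelial miR-200b-3p over all samples. The summed level of the 17 was 95.4 to 120 RPM (reads of an arm per 1000000 reads assigned to hairpins) in the control samples, 98.5 and 103 in LPS replicates 1 and 3 and 221 in LPS replicate 2. Their part in the results below was not tested.

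Both 3p arms were abundant. miR-222-3p was the 12th and miR-221-3p the 19th of 973 arms by mean level. Levels are given in RPM, without correction for length, since each miRNA is read whole. miR-222-3p was at 12516, 19872 and 22404 in control replicates 1, 2 and 3 and at 13968, 18718 and 23265 in the LPS replicates. miR-221-3p was at 6881, 9020 and 10264 in the control samples and at 6974, 8786 and 9838 with LPS. In both arms replicate 1 was the lowest and replicate 3 the highest sample of either group, and the groups overlapped. Together the 4 arms made up 2.03% to 3.44% of all hairpin reads.

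The 5p arms were read far less often. miR-221-5p was at 726, 822 and 913 in the control samples and at 852, 621 and 946 with LPS, which placed it 70th. miR-222-5p was at 161, 321 and 258 in the control samples and at 179, 307 and 330 with LPS, which placed it 100th. The groups overlapped in both 5p arms too, and in miR-221-5p the lowest sample was LPS replicate 2. The order miR-222-3p, miR-221-3p, miR-221-5p and miR-222-5p held in each of the 6 samples. Over all samples the highest level exceeded the lowest 1.86 times in miR-222-3p, 1.49 times in miR-221-3p, 1.52 times in miR-221-5p and 2.05 times in miR-222-5p.

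**Figure D1:**
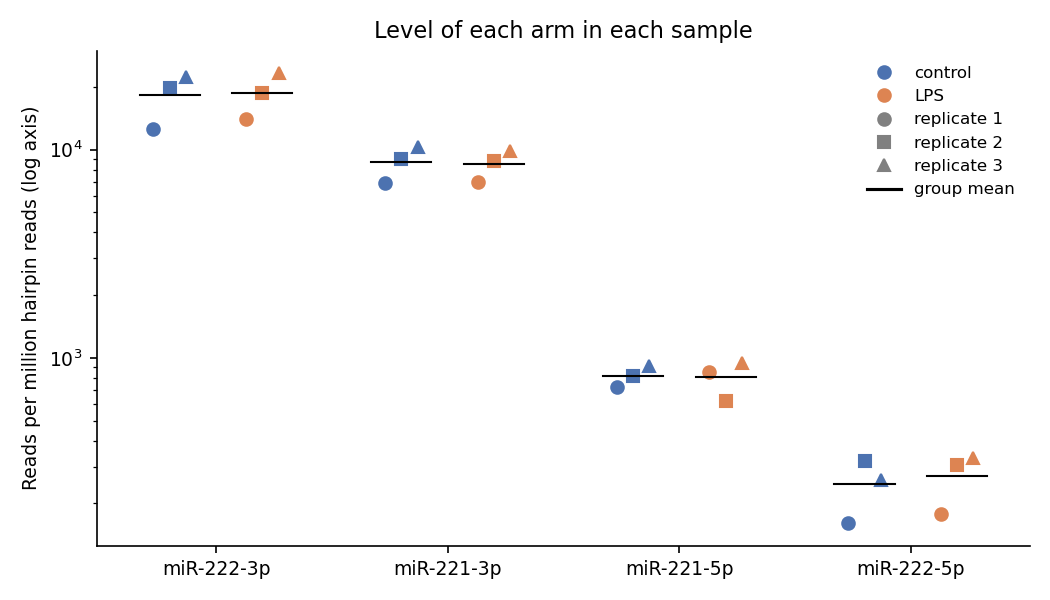
Level of the 4 arms in each sample, in RPM of hairpin reads on a log axis. Blue points are control and orange points LPS samples, the shape gives the replicate number and the line the group mean; miR-222-3p sits between 12516 and 23265 and miR-222-5p between 161 and 330, with control and LPS samples overlapping in every arm.

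These levels rested on many reads. miR-221-3p had 14746 to 96003 reads in a sample and miR-222-3p 32006 to 204543, whereas miR-222-5p had 411 to 3359. In control replicate 1 the 95% Wilson interval of the miR-221-3p level was 6781 to 6983 RPM, which covers counting error only and is far narrower than the spread between samples. Next to the pair in rank stood miR-30d-5p above miR-222-3p, with a mean of 23322 ± 1674 (SD, n = 6), and let-7i-5p below it at 17560 ± 1958, against 18457 ± 4387 for miR-222-3p. miR-221-3p, at 8627 ± 1422, stood between miR-30e-5p (9522 ± 869) and let-7c-5p (7371 ± 1245). The 6 samples of each 3p arm overlapped those of the arms next to it in rank.

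The comparison of LPS with control asked whether the super-low dose changed either miRNA within 4 h. None of the 4 arms passed the test, and their differences were small. miR-222-3p averaged 18264 ± 5136 RPM in the control samples and 18651 ± 4649 with LPS (SD, n = 3 each), and miR-221-3p averaged 8722 ± 1711 and 8533 ± 1449. By edgeR's quasi-likelihood test with TMM normalisation the log2 fold change of miR-222-3p was 0.0049 (SE 0.24, adjusted p = 0.99) and that of miR-221-3p was -0.057 (SE 0.17, adjusted p = 0.99). The 95% confidence intervals ran from a fold of 0.672 to 1.497 for miR-222-3p and from 0.725 to 1.27 for miR-221-3p.

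The 5p arms gave the same picture with less depth. miR-221-5p averaged 820 ± 93.6 in the control samples and 806 ± 167 with LPS, a log2 fold change of -0.049 (SE 0.17, adjusted p = 0.99 by edgeR). miR-222-5p averaged 247 ± 80.7 and 272 ± 81.5, a log2 fold change of 0.11 (SE 0.31, adjusted p = 0.99 by edgeR). Its interval was the widest of the 4, from a fold of 0.644 to 1.81.

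These values were read against all arms. Over the 319 arms tested, 0 (0%) passed an adjusted p of 0.05, the smallest adjusted p being 0.66, and DESeq2 and limma-voom also called 0. At an unadjusted p under 0.05 there were 8 arms (2.51%), 7 higher and 1 lower with LPS, and 0 of the 4 arms of the pair was among them. The control and LPS samples did not overlap in 10 arms (3.13%) and overlapped in all 4 arms of the pair. With LPS replicate 2 left out, the fit gave log2 fold changes of -0.10 for miR-221-3p, -0.026 for miR-222-3p, -0.020 for miR-222-5p and 0.086 for miR-221-5p, the last 3 of the opposite sign to the value with all samples, and none passed the test. Fewer cells making a miRNA and less of it in each cell cannot be told apart in such bulk samples.

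**Figure D2:**
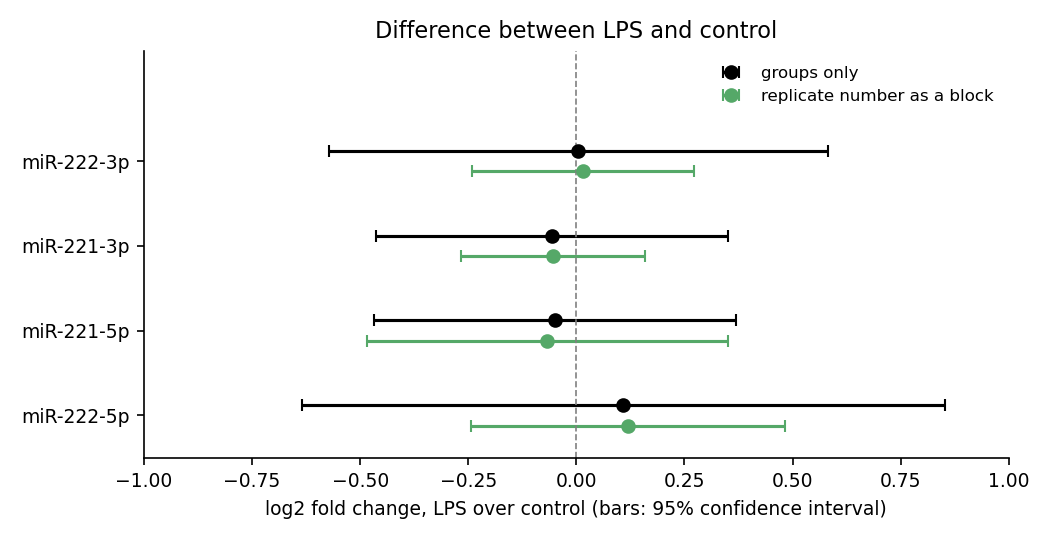
Log2 fold change of LPS over control for each arm with its 95% confidence interval, from edgeR on the groups alone (black) and with the replicate number as a block (green). All 8 intervals include 0, and the widest is that of miR-222-5p on the groups alone.

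Other miRNAs tied to the response to LPS and to endotoxin tolerance were taken as a list of 20, which includes miR-155-5p, miR-146a-5p, miR-132-3p and miR-223-3p. Of the 17 that were tested, 0 passed the adjusted threshold and 0 had an unadjusted p under 0.05 in either direction. Their log2 fold changes ran from -0.33 to 2.43 with a median of -0.025, beside 0.0027 over all 319 arms. The highest was that of miR-146a-5p, a miRNA induced by NF-κB signalling, which averaged 3769 RPM in the control samples and 20800 with LPS, where LPS replicate 2 was at 55427. Without it the LPS mean of miR-146a-5p was 3487, below the control mean, with 3955 and 3019 in LPS replicates 1 and 3. LPS replicate 2 was also the highest of all samples in miR-146b-5p, miR-155-5p, miR-132-3p, miR-125a-5p and miR-147-3p. In miR-146b-5p it was at 2966 RPM, beside a control mean of 380. It was the lowest in some others, among them miR-125b-5p, miR-181a-5p, miR-10a-5p and miR-210-3p. The control and LPS samples did not overlap in 1 of the 17, beside 10 of all 319 arms (3.13%). Why LPS replicate 2 differs was not tested. LPS replicate 2 did not stand apart in miR-222-3p or miR-221-3p, where it was the middle one of the LPS samples.

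The samples were also compared by their replicate number. How many of all 319 arms differ more by number than by LPS was not counted. Within pairs of the same number the log2 difference of LPS from control was taken for numbers 1, 2 and 3. It was 0.13, -0.14 and 0.055 in miR-222-3p, and -0.0055, -0.093 and -0.061 in miR-221-3p. In miR-222-5p it was 0.13, -0.12 and 0.35, and in miR-221-5p 0.21, -0.46 and 0.052. Number 2 exceeded number 1 by a log2 value of 0.51 in miR-222-3p, 0.32 in miR-221-3p and 0.86 in miR-222-5p. Number 3 exceeded number 1 by 0.66, 0.41 and 0.66. In miR-221-5p the same differences were -0.17 and 0.11. By edgeR's quasi-likelihood test between replicate numbers, a test added after the levels were seen, the unadjusted p was 0.0089 for miR-222-3p, 0.012 for miR-222-5p, 0.025 for miR-221-3p and 0.41 for miR-221-5p. None passed after adjustment over all arms (adjusted p of 0.26, 0.26, 0.28 and 0.60), and 2 of the 319 arms (0.627%) did. At the unadjusted threshold 54 arms (16.9%) passed between replicate numbers, so the 3 arms of the pair that passed it stood among many. What the replicate numbers stand for, such as a day or a mouse, is not given in the sources used here.

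The 3p arms moved together. Over the 6 samples the Pearson correlation of their log2 normalised counts was 0.978, and each was the arm most like the other among the 139 other arms with a mean of at least 100 CPM (counts scaled to library size). Next to it, miR-106b-5p and miR-744-5p stood at 0.977 and 0.974 with miR-221-3p, and miR-181b-5p and miR-744-5p at 0.969 and 0.964 with miR-222-3p. These are descriptions over 6 samples that share their replicate numbers, and the neighbours in this order are nearly equal.

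miR-222-3p was the higher of the 3p arms in each of the 6 samples. It exceeded miR-221-3p 1.82, 2.203 and 2.18 times in the control samples and 2.00, 2.13 and 2.36 times with LPS. The groups overlapped, and the mean log2 ratio was 1.04 in the control samples and 1.11 with LPS, a difference of 0.069 (exact two-sided permutation test, p = 0.70, with n = 3 each allowing no p below 0.1). The summed level of all 4 arms, 20284 to 33839 RPM in the control samples and 21973 to 34379 with LPS, differed by 0.020 on the log2 scale (exact two-sided permutation test, p = 0.90, n = 3 each). The ratio compares reads, and how well each sequence is ligated and amplified was not tested.

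The hairpins differed in how much of the 5p arm was read. The 5p arm took 9.54%, 8.35% and 8.17% of the reads of Mir221 in the control samples and 10.9%, 6.60% and 8.77% with LPS. In Mir222 it took 1.27%, 1.59% and 1.14% in the control samples and 1.26%, 1.62% and 1.40% with LPS. The share in Mir222 was lower in 6 of 6 samples, with a mean difference of -7.34 percentage points (SD 1.55; exact paired permutation test, p = 0.031, adjusted p = 0.031 over 5 tests), which is the smallest p that 6 pairs allow. This test and the 4 like it below take the 6 samples as independent, and with samples of the same replicate number averaged first the 3 differences that remain give p = 0.25 in each, the smallest that 3 allow (exact paired permutation test). As a result the 5p arms stood in the opposite order to the 3p arms, with miR-221-5p at 2.02 to 4.77 times miR-222-5p.

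The reads also showed where each 3p arm ends. The leading reads of each arm are shown as sequenced, in DNA letters, with the seed in capitals and any base that does not match the hairpin in capitals at the 3′ end.
miR-221-3p, 22 nt: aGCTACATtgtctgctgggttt
miR-221-3p, 23 nt: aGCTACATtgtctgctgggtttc
miR-221-3p, 24 nt: aGCTACATtgtctgctgggtttcT
miR-222-3p, 24 nt: aGCTACATctggctactgggtctc
miR-222-3p, 25 nt: aGCTACATctggctactgggtctct
miR-222-3p, 23 nt: aGCTACATctggctactgggtct
In miR-221-3p the 22 nt read was the most frequent, at 42.4% to 47.6% of the reads of the arm, 1 base shorter than the RefSeq sequence, which took 17.0% to 22.1%. In miR-222-3p the 24 nt read led with 63.95% to 66.1% in 5 samples and 56.0% in LPS replicate 2, 1 base longer than the RefSeq sequence. The RefSeq 23 nt sequence took 8.37% to 10.8% of miR-222-3p reads in those 5 samples and 14.7% in LPS replicate 2. Counting only the RefSeq sequences would thus keep 20.02% of the reads of miR-221-3p and 10.02% of those of miR-222-3p on average.

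The leading sequence took a larger share in miR-222-3p than in miR-221-3p in 6 of 6 samples, by 19.4 percentage points on average (SD 5.44; exact paired permutation test, p = 0.031, adjusted p = 0.031). The difference was 8.44 points in LPS replicate 2, and without that sample the mean was 21.6. With exact matches only, which leaves out reads with tails, it was 10.5 points. The mean read length was 22.47 ± 0.032 nt in miR-221-3p and 24.03 ± 0.057 nt in miR-222-3p (SD, n = 6), a difference of 1.56 nt with miR-222-3p longer in 6 of 6 samples (exact paired permutation test, p = 0.031, adjusted p = 0.031). The control and LPS means were 22.47 and 22.47 nt in miR-221-3p and 24.05 and 24.01 nt in miR-222-3p.

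**Figure D3:**
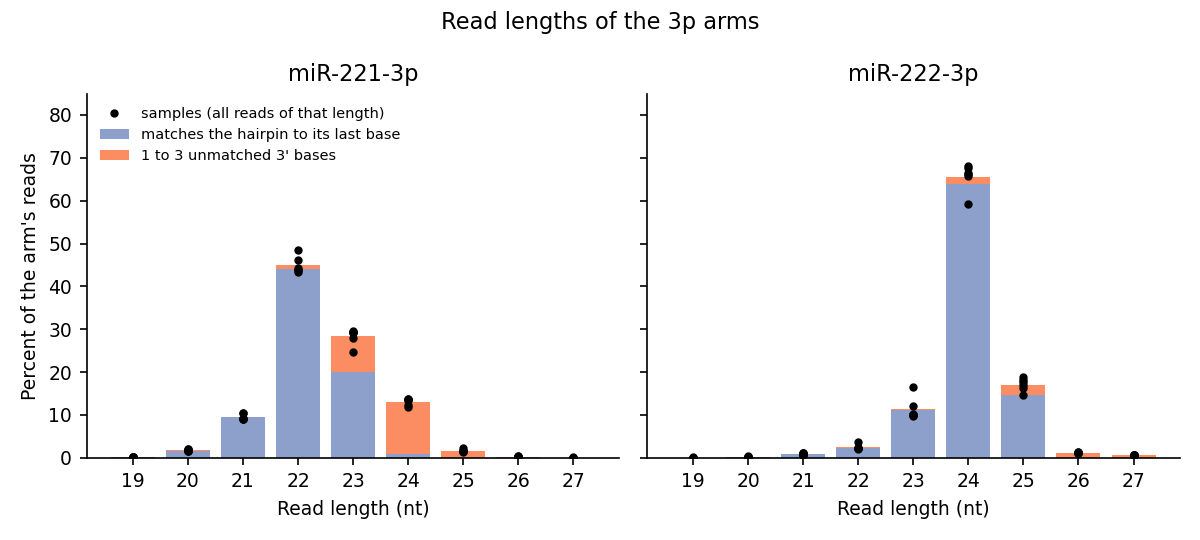
Read length of the 3p arms as a percent of the reads of each arm. Bars are the mean of 6 samples, split into reads that match the hairpin to their last base (blue) and reads with 1 to 3 unmatched 3′ bases (orange), and points are the samples; miR-221-3p peaks at 22 nt and miR-222-3p at 24 nt, and the orange part is larger in miR-221-3p.

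Nucleotidyl transferases can add bases that do not match the hairpin to the 3′ end of a finished miRNA. How the unmatched 3′ bases in these reads, called tails here, arose was not tested. Tails were found on 25.96%, 21.2% and 22.8% of miR-221-3p reads in the control samples and on 25.5%, 21.96% and 23.5% with LPS. In miR-222-3p they were found on 6.63%, 6.47% and 6.42% in the control samples and on 6.08%, 8.94% and 6.23% with LPS, where LPS replicate 2 was the highest. The share was lower in miR-222-3p in 6 of 6 samples, with a mean difference of -16.7 percentage points (SD 2.53; exact paired permutation test, p = 0.031, adjusted p = 0.031). Tails made only of T (uridine in the RNA) took 15.8% ± 1.62 of miR-221-3p reads and 1.99% ± 0.317 of miR-222-3p reads (SD, n = 6), and tails made only of A took 4.22% ± 0.397 and 2.39% ± 0.332.

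The hairpin itself sets which tails can be seen, so the arms were also compared at the same following base. The base after the 22 nt read of miR-221-3p and after the 23 nt read of miR-222-3p is C in both hairpins. Set against the read without the added base, reads with 1 added T there numbered 9.82% to 15.9% in miR-221-3p. In miR-222-3p they numbered 9.22% to 10.9%, and the ranges over the 6 samples overlapped. Within each of the 6 samples the value was nonetheless higher in miR-221-3p. The gap was widest in LPS replicate 1 (15.1% and 9.22%) and narrowest in control replicate 2 (9.82% and 9.65%), and it was not tested. A second measure is the share with T among all reads with 1 base more, including those with the matching base. By it, T took 16.2% to 24.0% after 22 nt of miR-221-3p and 1.21% to 2.51% after 23 nt of miR-222-3p. The 2 arms thus overlapped by the first measure and not by the second. After 23 nt of miR-221-3p the hairpin continues with A, yet by the second measure 87.5% to 90.7% of the reads had T and 8.18% to 11.1% had A. After the 24 nt read of miR-222-3p the hairpin continues with T, so an added T there cannot be told apart from a longer cut, and the 25 nt read, 12.2% to 16.4% of the arm, was counted as matching. The tail share of miR-222-3p leaves out any such reads.

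The 5′ end, which sets the seed, was cut at 1 position in nearly all reads of both 3p arms. Reads with another first base took 0.140% to 0.214% of miR-221-3p and 1.91% to 2.96% of miR-222-3p. LPS replicate 2 was the highest sample in miR-222-3p but not in miR-221-3p, where it was at 0.182%. The share was higher in miR-222-3p in 6 of 6 samples, by 2.13 percentage points on average (SD 0.354; exact paired permutation test, p = 0.031, adjusted p = 0.031). In miR-222-3p most of them began 1 base earlier (1.48% to 2.49% of the arm), which moves the seed by 1 base, as in the following read with its bases 2 to 8 in capitals.
miR-222-3p, 1 base earlier: cAGCTACAtctggctactgggtc

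**Figure D4:**
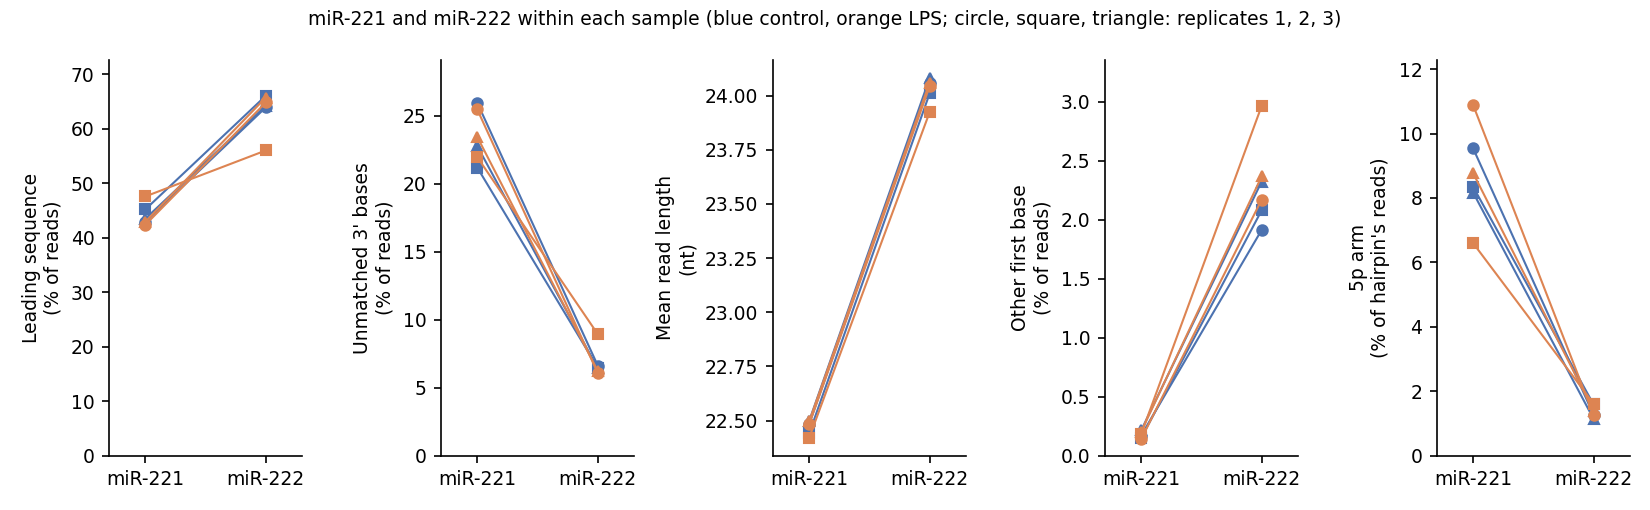
Read features of miR-221 and miR-222 joined within each of the 6 samples, blue for control and orange for LPS, with the replicate given by the shape. The first 4 panels are the 3p arms (share of the leading sequence, share with unmatched 3′ bases, mean length in nt on an axis that does not start at 0, share with another first base) and the last is the 5p share of each hairpin; each line runs the same way in all 6 samples of its panel.

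The 5p arms had ends of their own. The leading read of miR-221-5p was the 26 nt RefSeq sequence, at 55.9% to 61.7% of the arm, and 2.05% to 3.41% of its reads began at another base. In miR-222-5p the start varied, which puts different bases at positions 2 to 8 (in capitals).
miR-222-5p, leading start: cTCAGTAGccagtgtagatcc
miR-222-5p, 1 base later: tCAGTAGCcagtgtagatcct
miR-222-5p, 2 bases earlier: gGCTCAGTagccagtgtagatc
The leading start took 50.1% to 58.7% of miR-222-5p reads and the start 1 base later 28.9% to 39.6%. The start 2 bases earlier took 6.18% to 9.01% in 5 samples and 20.9% in LPS replicate 2. In each of the other 3 arms reads with another first base stayed at or below 3.41%.

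Sites for the shared seed of the 3p arms were looked up in the longest annotated 3′-UTR (untranslated region after the coding part) of each gene (GENCODE M21, GRCm38), as a description of the letters there and with no measurement of these genes. The 7 bases ATGTAGC, the reverse complement of the seed on the transcript strand, occur in 9.51% of 20804 genes. Of 9 genes often named as targets of the pair, 7 held them, namely Cdkn1b, Cdkn1c, Kit, Timp3, Bbc3, Bmf and Ets1. Smarca4 and Foxo3 held the 6 bases TGTAGC without the seventh. The 9 genes were listed because they had been studied as targets, so their count is no test against the share over all genes. Sites in Cdkn1b and Kit, the best known targets, and in Timp3, an inhibitor of metalloproteinases, are shown with the 7 bases in capitals.
Cdkn1b, chr6:134924431-134924437: ctctaaaagcattggATGTAGCattgcgc
Kit, chr5:75654992-75654998: aatgatgggagatatATGTAGCaagacta
Kit, chr5:75656523-75656529: tttgtaaatattgaaATGTAGCaataatg
Timp3, chr10:86348285-86348291: aatttaaaatcatttATGTAGCtgagaca
Longer 3′-UTRs hold a given 7 bases more often, and among genes with a 3′-UTR of like length 23.1% held them for Cdkn1b, 15.4% for Kit and 24.3% for Timp3. Over the 9 genes this share ran from 4.97% for Cdkn1c to 29.4% for Foxo3, which held no such site.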

How the data were processed

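Small RNAs of 3 control and 3 LPS samples were prepared with the TruSeq Small RNA kit and sequenced on an Illumina HiSeq machine. The authors trimmed adaptors and deposited, for each sample, distinct read sequences of 11 to 40 nt with raw counts and no miRNA names. The labels list the build mm9, which no step here used.

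Reads of 18 nt or more were matched exactly to 1174 GENCODE M21 hairpins (GRCm38), with up to 3 unmatched 3′ bases, and counted per arm. Arms sharing at least 50% of their reads were merged. A leading sequence is the read with the largest mean share of its arm. Sequences are from RefSeq and matched all names but miR-222-5p. Counts were filtered by filterByExpr and tested with edgeR 4.0.16 (TMM, quasi-likelihood, Benjamini-Hochberg, threshold 0.05, R 4.3.3). Alternatives were DESeq2 1.42.0, limma-voom 3.58.1 and those named in the closing section. Single values were tested by exact permutation (scipy 1.17.1). The fits and permutation tests were tested on simulated data. The members, gene lists and tests were chosen with earlier results of these data known. The text names all arms of the pair, listed miRNAs only where a result turns on them or to show where LPS replicate 2 stood, and the 3 most correlated arms. Of the genes searched for seed matches, 1 is not reported here.

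Deviations from the group means correlated at 0.594, 0.259 and 0.277 between samples with the same replicate number, and at -0.386 to 0.153 otherwise, over 319 arms. The numbers, from the sample titles, were therefore taken to pair the samples in the fit with the replicate block. This pairing was read from the same counts that the fit uses. No label states it, and whether it is real was not tested. The main edgeR fit and the permutation tests of LPS against control did not use this pairing.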

Additional observations from a re-analysis of the deposited data

How the results depend on the processing

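No arm of the pair passed the adjusted threshold under any alternative (DESeq2, limma-voom, library totals, no filter, replicate block, exact matches, reads of at least 20 nt, leading sequences only, 1 sample left out), with adjusted p from 0.68 to 1.00. The replicate block gave log2 fold changes of -0.053 for miR-221-3p, 0.016 for miR-222-3p, -0.067 for miR-221-5p and 0.12 for miR-222-5p. With it 0 arms were called, as without it. The 95% intervals were then narrower, at -0.27 to 0.16 for miR-221-3p and -0.24 to 0.27 for miR-222-3p. Those widths rest on a pairing that was taken from these same data. Without the count filter 21 arms passed instead of 0, none of the pair. The sign of these near-zero differences was not stable. miR-222-3p was at -0.0094 with exact matches, -0.0015 with reads of at least 20 nt and -0.047 with leading sequences only. Leaving out 1 sample gave -0.16 to 0.046 for miR-221-3p, -0.16 to 0.15 for miR-222-3p, -0.13 to 0.086 for miR-221-5p and -0.082 to 0.37 for miR-222-5p. The difference in the log2 ratio ran from -0.021 to 0.12 and that in the summed level from -0.20 to 0.19 in the same way, and the latter was -0.066 with levels taken over all reads in the file. The within-sample differences between the hairpins were tried with exact matches (not for tails), reads of at least 20 nt, 1 sample left out and, added after seeing the data, samples of the same replicate number averaged first, and kept their direction in each. With exact matches the leading share differed by 10.5 points instead of 19.4. With the replicate numbers averaged the means were 19.4 points for the leading share, -16.7 for tails, 1.56 nt for length, 2.13 points for shifted starts and -7.34 for the 5p share, each at p = 0.25, the smallest that 3 differences allow by exact permutation. With 1 sample left out they ran from 18.7 to 21.6 points for the leading share, -17.4 to -16.1 for tails, 1.55 to 1.57 nt for length, 1.99 to 2.202 points for shifted starts and -7.81 to -6.88 for the 5p share, where 5 pairs allow no p below 0.0625. The causes of these shifts were not tested. miR-222-5p, with 411 reads in the shallowest case, is measured least precisely.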
